A study of Mus musculus with 12 samples.

Results

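TRIM proteins are a family of ubiquitin ligases, named after their shared tripartite motif. The 43 genes described here are the TRIM genes measured in mouse bone marrow macrophages, out of 58 on the array and 18194 genes in all. A gene was taken if a probe set carried its symbol alone, as Trim followed by a number and at most 1 letter. Each gene was represented by its probe set of highest mean signal, and was kept if that probe set was above the median of the array on at least 2 of the 12 arrays. The other 15 genes did not reach this level. Just inside the limit, on 2 arrays each, were Trim5, Trim7, Trim12a, Trim54 and Trim69, with mean signals of 10.7 to 18.2. Just outside it, on 1 array each, were Trim46, Trim60, Trim63 and Trim67, with mean signals of 4.44 to 16.0. Of the 43 genes, 30 were above the median on all 12 arrays.

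Most TRIM proteins carry a RING domain that passes ubiquitin to a target, then B-boxes and a coiled coil through which the proteins pair. Ubiquitin chains mark a target for destruction or serve as a platform for signalling, and many TRIM proteins act in the pathways that macrophages use against microbes. Several TRIM genes are themselves induced by type I interferon, which macrophages make once Toll-like receptor 4 has sensed LPS, the lipopolysaccharide on the surface of Gram-negative bacteria.

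Macrophages were grown from bone marrow of mice with kinase-dead IRAK4 (KD) or of wild-type mice (WT). IRAK4 is the kinase that MyD88 recruits below Toll-like receptors. The 6 groups, with 2 arrays each, were KD cells without LPS for 4 h, KD cells with LPS at 1 µg/ml for 1 h, KD cells with LPS at 1 µg/ml for 4 h, and the same 3 conditions in WT cells. All cultures grew in medium with serum and L-929 conditioned medium. The labels call the replicates biological without saying whether they were separate animals, and the p-values cover only the spread between arrays of 1 group, which may be technical. The sources used here do not give the age, sex or background strain of the mice. Since cells without LPS were kept for 4 h, the comparison at 1 h sets shorter cultures with LPS against longer ones without.

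The values are MAS5 signals, a summary of the brightness of the probes of a probe set. Array medians were 24.2 to 26.9 in KD and 18.9 to 22.0 in WT, at a common trimmed mean of 150. Replicate 1 of KD without LPS had the highest 3' over 5' signal, as log2 ratios of 1.35 for Gapdh and 3.04 for Actb. On the other arrays the ratios were 0.81 to 1.17 for Gapdh and 2.22 to 2.85 for Actb. All 8 macrophage markers were measured, with summed signals of 17847 to 25917. Without LPS these sums were 21664 to 25917 in KD and 17847 to 18387 in WT, without overlap. At 1 h they were 23554 to 23737 in KD and 19862 to 22808 in WT. At 4 h they were 20151 to 21630 in KD and 20293 to 21897 in WT. Markers of T and NK cells summed to 34.6 to 86.7, of B cells to 4.2 to 45.0, of neutrophils and their precursors to 40.5 to 120, of dendritic cells to 39.7 to 87.1, of erythroid cells to 2.6 to 58.6, and of mast cells and basophils to 11.5 to 37.5. The 6 stromal markers, collagen genes among them, had higher sums that moved with strain and LPS. Those sums were 1202 to 1548 without LPS, 2058 to 2521 at 1 h and 2255 to 2640 at 4 h in KD. In WT they were 2781 to 2782 without LPS, 2786 to 2854 at 1 h and 1972 to 2188 at 4 h. The part of the macrophage and stromal sums in the results below was not tested. In such bulk samples, fewer cells of a type and less RNA per cell cannot be told apart.

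LPS moved a part of the family in both directions, and Trim13, Trim21 and Trim30d rose while Trim65 and Trim16 fell in both strains at 4 h. A gene was called at a limma adjusted p under 0.05, adjusted over all 27931 tested probe sets, and changes are log2 changes ± SE. At 4 h in KD, 11 of the 43 genes were called (25.6%), 6 higher and 5 lower, against 10.0% of all tested probe sets (5.3% higher and 4.7% lower). At 4 h in WT, 12 genes were called (27.9%), 6 higher and 6 lower, against 17.1% of all tested probe sets (6.95% higher and 10.2% lower). The median change over the 43 genes at 4 h was -0.116 in KD and -0.12 in WT, beside -0.046 and -0.119 over all tested probe sets. The 43 genes are read from the brightest probe set of each gene, while all tested probe sets include dimmer ones. What this choice adds to the shares called, here and below, was not tested.

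Fewer genes were called at 1 h. In KD these were 4 genes (9.3%), 3 higher and 1 lower, against 5.47% of all tested probe sets (3.17% higher and 2.29% lower). In WT they were 7 genes (16.3%), 4 higher and 3 lower, against 6.12% (2.89% higher and 3.23% lower). The median change over the 43 genes at 1 h was -0.061 in KD and -0.136 in WT, beside -0.006 and -0.033 over all tested probe sets.

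The calls of the strains overlapped in part. At 4 h, 7 genes were called in both strains, all in the same direction, which is 63.6% of the KD calls and 58.3% of the WT calls. These were Trim13, Trim21, Trim30a and Trim30d, which were higher, and Trim8, Trim16 and Trim65, which were lower. At 1 h, 3 genes were called in both strains, Trim13, Trim30a and Trim30d, or 75.0% of the KD calls and 42.9% of the WT calls. The overlap of the strains over all tested probe sets was not computed, so these shares are not shown to be particular to TRIM genes. The map of the LPS responses shows the 43 genes by role.

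**Figure D1:**
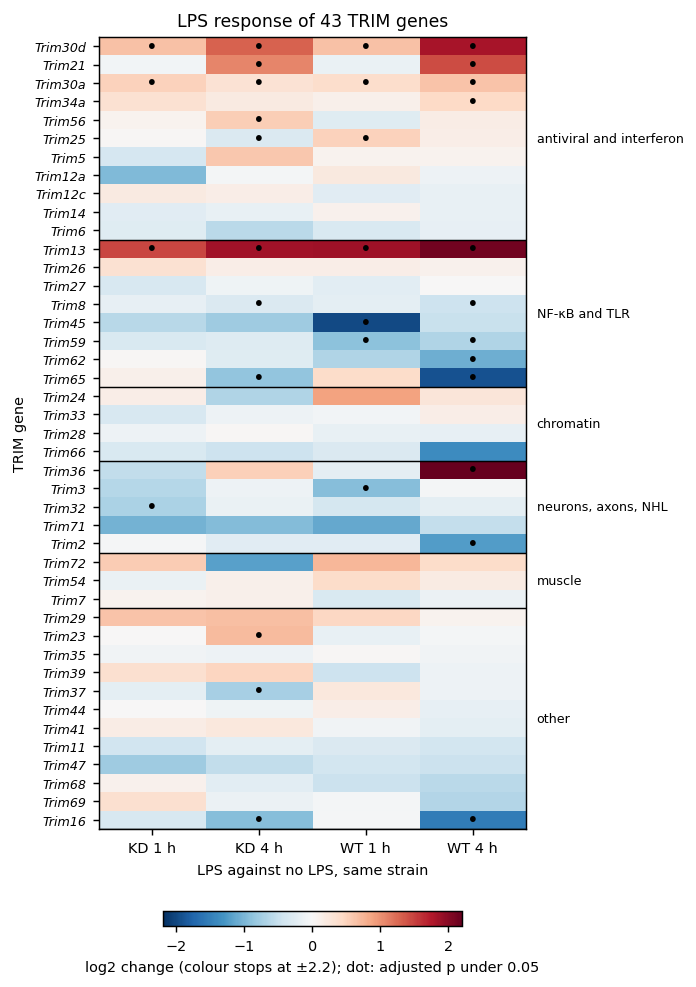
Log2 change of 43 TRIM genes (down the page, grouped by known role) with LPS against no LPS, for KD at 1 h and 4 h and WT at 1 h and 4 h (across). Dots mark adjusted p under 0.05. The dots number 4, 11, 7 and 12 from left to right, and the chromatin and muscle groups, of 4 and 3 genes, have none.

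Of the lists by role, the antiviral and interferon-linked genes, 11 of 11 kept, had the most calls upward. This list was drawn up with earlier results of these data known, and some genes fit several lists. Trim65, whose product acts on an RNA sensor, was placed in the NF-κB and Toll-like receptor list. Trim30a, which is also tied to Toll-like receptor signalling, was placed in the antiviral list. Other placements would change the counts of both lists. At 4 h, 4 of the 11 antiviral genes were higher and 1 lower in KD, and 4 were higher and 0 lower in WT, with median changes of 0.2 and 0.14. At 1 h, 2 were higher in KD and 3 in WT. Over all tested probe sets, 5.3% were higher and 4.7% lower at 4 h in KD, and 6.95% and 10.2% in WT. At 1 h, 3.17% were higher in KD and 2.89% in WT. The mouse Trim30 genes are relatives that stand side by side on chromosome 7, in the order Trim30b, Trim30c, Trim30a, Trim30d, after Trim6, Trim34a, Trim5, Trim12a, Trim34b and Trim12c. Near-identical copies can share signal on an array, so the values of these genes cannot be assigned to 1 gene with certainty.

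The promoters of Trim30a and Trim30d are shown because both genes rose in each strain, beside those of their neighbours Trim5 and Trim12c, which were called in no comparison. Trim5 was dim, with a mean signal of 12.4, and above the array median on 2 arrays, so that a change could be missed. Each line gives 120 bases before a start site on the minus strand of chromosome 7 (RefSeq, GRCm38.p6), with capitals on the match to a motif that interferon response elements share, GAAA followed by any 2 bases and GAAA, which here lies on the opposite strand.
Trim30a: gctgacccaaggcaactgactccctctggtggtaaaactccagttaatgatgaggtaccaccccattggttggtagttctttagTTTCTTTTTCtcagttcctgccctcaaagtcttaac
Trim30d: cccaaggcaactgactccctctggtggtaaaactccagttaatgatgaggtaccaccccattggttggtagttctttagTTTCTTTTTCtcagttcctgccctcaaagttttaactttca
Trim12c: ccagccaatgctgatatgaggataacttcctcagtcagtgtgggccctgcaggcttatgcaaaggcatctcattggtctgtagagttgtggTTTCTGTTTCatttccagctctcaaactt
Trim5: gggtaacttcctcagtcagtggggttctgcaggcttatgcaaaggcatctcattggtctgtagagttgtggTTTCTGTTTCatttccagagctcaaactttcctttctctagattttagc

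These windows lie at chr7:104465194-104465313 for Trim30a, chr7:104507850-104507969 for Trim30d, chr7:104353350-104353469 for Trim12c and chr7:104288107-104288226 for Trim5. Trim30a and Trim30d matched at 114 of 115 aligned bases (99.1%), and Trim5 and Trim12c at 95 of 100 (95.0%). Trim30a and Trim12c matched at 77 of 107 (72.0%). The motif, searched on both strands in the 250 bases before each start site, was in 2.98% of 32851 promoters. It was in 5 of the 33 kept TRIM genes with a promoter in the table, namely Trim5, Trim12c, Trim26, Trim30a and Trim30d. The counts of TRIM genes take a match at any start site of a gene, while the shares of promoters count each start site, so they are not alike. Of these 5, Trim30a with Trim30d and Trim5 with Trim12c are the closely matching pairs given above. Trim30a has 2 start sites in the table and was counted through the 1 shown, since the 250 bases before the other hold no match. Among the genes called at 4 h in either strain, it was in 2 of 7 that rose and 0 of 5 that fell and have a promoter in the table. The NF-κB consensus was in 7.25% of promoters and in 1 of the 33 genes, Trim28. A match is a description of the letters and not evidence of binding.

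Trim30d rose in both strains and rose further between 1 h and 4 h. Its signals in KD were 92.1 and 77.9 without LPS, 149.4 and 121.2 at 1 h, and 223.4 and 206.2 at 4 h. In WT they were 108.1 and 96.2 without LPS, 162.7 and 162.9 at 1 h, and 347.3 and 393.6 at 4 h. The conditions did not overlap in either strain, and WT at 4 h was the highest group. At 4 h the change was 1.30 ± 0.18 in KD (adjusted p 6.11e-05) and 1.81 ± 0.18 in WT (adjusted p 4.28e-07). The 1 h change was 0.64 ± 0.18 in KD (adjusted p 0.0425) and 0.65 ± 0.18 in WT (adjusted p 0.0363). The KD call at 1 h was lost without any 1 of 9 arrays, all but WT with 1 h LPS and replicate 1 of KD without LPS (highest adjusted p 0.293). The WT call at 1 h was lost without any 1 of 8 arrays, all 6 of WT and both of KD with 4 h LPS (highest adjusted p 0.215). A dimmer Trim30d probe set, with a mean of 22.4, changed by 0.40 ± 0.50 in KD and 0.33 ± 0.50 in WT and was not called.

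Trim30a, whose product was reported in mouse cells to restrain Toll-like receptor signalling through the adaptors TAB2 and TAB3, rose less. KD cells had signals of 2203.5 and 2113.1 without LPS, 3129.1 and 2969.0 at 1 h, and 2612.1 and 2776.8 at 4 h. WT cells had signals of 1835.2 and 2050.4 without LPS, 2289.8 and 2779.1 at 1 h, and 3122.0 and 2872.3 at 4 h. Within each strain every LPS array was above the arrays without LPS. The KD change was 0.50 ± 0.10 at 1 h (adjusted p 0.00363) and 0.32 ± 0.10 at 4 h (adjusted p 0.0429). The WT change was 0.38 ± 0.10 at 1 h (adjusted p 0.0243) and 0.63 ± 0.10 at 4 h (adjusted p 0.000102). The KD call at 4 h was lost without any 1 of 8 arrays, all but WT without LPS and WT with 1 h LPS (highest adjusted p 0.235). The KD call at 1 h was lost without replicate 1 of KD with 1 h LPS (adjusted p 0.0566), and the WT call at 1 h without replicate 1 of WT without LPS or replicate 2 of WT with 1 h LPS (highest adjusted p 0.317). A second Trim30a probe set was called higher at 4 h in both strains, by 1.00 ± 0.25 in KD and 1.10 ± 0.25 in WT.

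Trim21, a cytosolic receptor for antibodies bound to viruses, rose at 4 h and not at 1 h. The signals in KD cells were 573.1 and 715.1 without LPS, 634.5 and 593.1 at 1 h, and 1327.2 and 1369.0 at 4 h. Those in WT cells were 610.8 and 638.8 without LPS, 619.3 and 521.1 at 1 h, and 1740.3 and 1635.6 at 4 h. All 4 h arrays lay above every other array, while the 1 h arrays overlapped those without LPS. The 4 h change was 1.07 ± 0.12 in KD (adjusted p 4.98e-06) and 1.43 ± 0.12 in WT (adjusted p 4.8e-08). The 1 h changes were -0.06 ± 0.12 in KD and -0.14 ± 0.12 in WT and were not called. A second probe set changed by 0.67 ± 0.33 in KD, which was not called, and by 1.05 ± 0.33 in WT (adjusted p 0.0332).

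Of the remaining antiviral genes, Trim34a, Trim56 and Trim25 were each called at 4 h in 1 strain. Trim34a, an interferon-inducible relative of Trim5, was higher at 4 h in WT by 0.44 ± 0.11 (adjusted p 0.00756), and its KD change of 0.20 ± 0.11 was not called. The WT call was lost without replicate 2 of WT without LPS or replicate 2 of WT with 4 h LPS (highest adjusted p 0.0965). Trim56, which was reported to act in antiviral signalling, was higher at 4 h in KD by 0.54 ± 0.12 (adjusted p 0.00627), and its WT change of 0.16 ± 0.12 was not called. The KD call was lost without replicate 2 of KD without LPS or replicate 2 of KD with 4 h LPS (highest adjusted p 0.0866). Trim5, Trim6, Trim12a, Trim12c and Trim14 were called in no comparison. Of these, Trim5, Trim6 and Trim12a were dim, with mean signals of 12.4, 22.9 and 10.7, so that a change could be missed.

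Trim25, which in human cells activates the RNA sensor RIG-I, was higher at 1 h in WT and lower at 4 h in KD. The 1 h change in WT was 0.51 ± 0.09 (adjusted p 0.00161), with signals of 3355.1 and 3487.8 with LPS, against 2380.6 and 2415.5 without. The 4 h change in KD was -0.32 ± 0.09 (adjusted p 0.0321), with signals of 2343.6 and 2685.9 with LPS, against 3222.4 and 3042.7 without. That KD call was lost without either KD array without LPS or without replicate 1 of KD with 4 h LPS (highest adjusted p 0.345). The probe sets of Trim25 disagreed. One with a mean of 1453 changed by 0.31 ± 0.09 at 1 h in WT (adjusted p 0.0511) and by -0.17 ± 0.09 at 4 h in KD (adjusted p 0.28), neither of them called. Another with a mean of 32.5 rose at 4 h in WT by 2.51 ± 0.46 (adjusted p 0.000587), and changed by 0.17 ± 0.46 in KD.

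**Figure D2:**
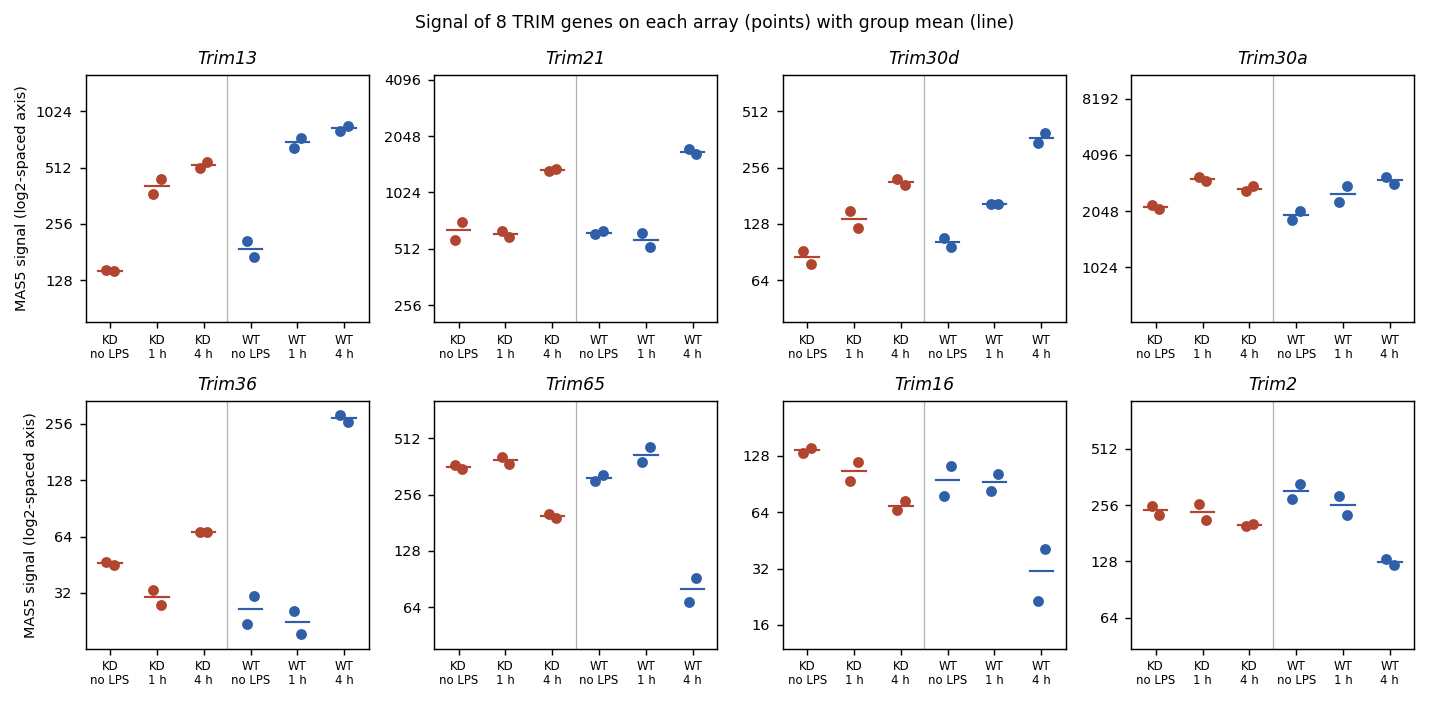
MAS5 signal of 8 TRIM genes on each of the 12 arrays (points; log2-spaced axis of equal span in each panel), with the group mean as a line, for KD (left) and WT (right) without LPS, at 1 h and at 4 h. Trim13 and Trim30d step upward with time, Trim21 rises at 4 h, Trim65 and Trim16 fall at 4 h, and Trim36 is high in WT at 4 h.

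Of the 10 genes linked to NF-κB and Toll-like receptor signalling, 8 were kept. At 4 h, 1 was higher and 2 were lower in KD, and 1 was higher and 4 were lower in WT, with median changes of -0.27 and -0.47. Beside these stand 5.3% higher and 4.7% lower of all tested probe sets in KD, and 6.95% and 10.2% in WT. The gene that rose was Trim13, a ubiquitin ligase anchored in the endoplasmic reticulum. Its signals in KD were 144.7 and 143.2 without LPS, 370.4 and 443.3 at 1 h, and 510.7 and 551.3 at 4 h. In WT they were 207.9 and 170.3 without LPS, 654.5 and 742.1 at 1 h, and 808.2 and 859.8 at 4 h. Every LPS array was above the arrays without LPS of its strain, and WT was above KD in each condition. The change in KD was 1.47 ± 0.14 at 1 h (adjusted p 1.23e-06) and 1.85 ± 0.14 at 4 h (adjusted p 2.15e-08). In WT it was 1.86 ± 0.14 at 1 h (adjusted p 3.63e-08) and 2.12 ± 0.14 at 4 h (adjusted p 1.42e-09). The step between 1 h and 4 h was 0.39 ± 0.14 in KD and 0.26 ± 0.14 in WT and was not called.

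Trim65, which ubiquitinates the RNA sensor MDA5 (the product of Ifih1), fell at 4 h in both strains. KD cells had signals of 369.8 and 352.7 without LPS, 407.2 and 375.2 at 1 h, and 202.9 and 191.1 at 4 h. WT cells had signals of 301.2 and 324.6 without LPS, 380.5 and 459.0 at 1 h, and 68.2 and 92.2 at 4 h. The 4 h arrays were the lowest of each strain, with WT below KD and no overlap. At 4 h the change was -0.86 ± 0.16 in KD (adjusted p 0.00138) and -1.92 ± 0.16 in WT (adjusted p 4.84e-08). The 1 h changes were 0.11 ± 0.16 in KD and 0.41 ± 0.16 in WT and were not called.

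Trim8, which was reported to ubiquitinate the kinase TAK1, was lower at 4 h in both strains, with changes of -0.31 ± 0.08 in KD (adjusted p 0.0242) and -0.46 ± 0.08 in WT (adjusted p 0.000597). The KD call was lost without either KD array without LPS or without replicate 1 of KD with 4 h LPS (highest adjusted p 0.265). Trim62, which was reported to modify the adaptor CARD9, had signals in WT of 46.5 and 44.1 at 4 h, against 109.6 and 92.5 without LPS. In KD it had 72.1 and 85.9 at 4 h, against 91.0 and 99.6 without LPS. No array of WT at 4 h reached those without LPS. The WT change was -1.08 ± 0.24 (adjusted p 0.00325), lost without replicate 1 of WT without LPS (adjusted p 0.0544), and the KD change of -0.26 ± 0.24 was not called. Other Trim62 probe sets changed by 0.69 ± 0.41 and -0.48 ± 0.42 in WT, neither of them called.

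Trim59 and Trim45 were called in WT. Trim59, a membrane-anchored TRIM protein reported to restrain Toll-like receptor signalling, was lower at 1 h, at -0.91 ± 0.22 (adjusted p 0.0172), and at 4 h, at -0.67 ± 0.22 (adjusted p 0.0435). The 4 h call was lost without any 1 of 8 arrays, those of WT without LPS, WT with 4 h LPS, KD with 1 h LPS and KD with 4 h LPS (highest adjusted p 0.208). The 1 h call was lost without either WT array without LPS or without replicate 2 of WT with 1 h LPS (highest adjusted p 0.236). Trim45 was lower at 1 h, at -1.98 ± 0.47 (adjusted p 0.0158), with signals of 4.8 and 2.6 with LPS, near the pseudocount of 4.4, against 24.2 and 30.6 without. That call was lost without either WT array without LPS or without replicate 2 of WT with 1 h LPS (highest adjusted p 0.133).

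Of the 8 genes best known from neurons, axons and NHL-repeat proteins, 5 were kept. At 4 h, limma called 0 in KD (0 at an unadjusted p under 0.05), and 1 was higher and 1 lower in WT. Of all tested probe sets, 10.0% were called in KD, and 6.95% were higher and 10.2% lower in WT. Trim36, a microtubule-associated ubiquitin ligase, rose the most of any kept TRIM gene in WT. The signals in KD cells were 47.0 and 45.2 without LPS, 33.3 and 27.6 at 1 h, and 67.9 and 68.1 at 4 h. Those in WT cells were 21.8 and 30.8 without LPS, 25.5 and 19.2 at 1 h, and 285.7 and 262.9 at 4 h. WT at 4 h stood above all other arrays, and without LPS the KD arrays were above those of WT, a difference that was not called (adjusted p 0.175). The 4 h change was 0.52 ± 0.29 in KD, which was not called, and 3.20 ± 0.29 in WT (adjusted p 1.23e-07). The dimmer of the probe sets of Trim36, with a mean of 23.2, did not show that gap: it changed by 1.83 ± 0.64 in KD (adjusted p 0.0818) and by 2.07 ± 0.64 in WT (adjusted p 0.0305).

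Trim2, known to ubiquitinate the neurofilament light chain, fell at 4 h in WT. Its signals in KD were 254.0 and 225.9 without LPS, 258.5 and 213.3 at 1 h, and 198.4 and 204.1 at 4 h. In WT they were 277.7 and 332.3 without LPS, 286.1 and 227.9 at 1 h, and 132.7 and 122.0 at 4 h. WT at 4 h was the lowest group and overlapped no other. At 4 h the change was -0.25 ± 0.17 in KD, which was not called, and -1.23 ± 0.17 in WT (adjusted p 2.68e-05). Of 4 dimmer Trim2 probe sets, 1 was called lower in WT, at -1.15 ± 0.35, and 1 changed by 0.51 ± 0.61.

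Trim32 and Trim3 were lower at 1 h in 1 strain each. Trim32, mutated in a human limb-girdle muscular dystrophy, was lower at 1 h in KD, at -0.70 ± 0.14 (adjusted p 0.0037), and its WT change of -0.39 ± 0.14 was not called. Trim3, another protein with NHL repeats, was lower at 1 h in WT, at -0.93 ± 0.19 (adjusted p 0.00413), lost without replicate 1 of WT without LPS (adjusted p 0.0568). Its KD change of -0.62 ± 0.19 had an adjusted p of 0.061. At 4 h the changes of both genes lay between -0.22 (Trim32 in WT) and -0.05 (Trim3 in WT), and none was called.

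The chromatin co-regulators, 4 of 4 kept, had 0 genes called by limma in any of the 4 LPS comparisons. Shares called of all tested probe sets were 5.47% at 1 h and 10.0% at 4 h in KD, and 6.12% and 17.1% in WT. At an unadjusted p under 0.05 there was 1 chromatin gene at 1 h in KD, 1 at 1 h in WT, 1 at 4 h in WT and 0 at 4 h in KD. The chromatin genes include Trim28, the corepressor that zinc finger proteins of the KRAB type recruit, and its relatives Trim24, Trim33 and Trim66. Trim28 changed by 0.02 ± 0.12 at 4 h in KD and by -0.18 ± 0.12 in WT. Trim66, dim at a mean signal of 22.1, had the largest change of these genes at 4 h in WT, at -1.39. The muscle-linked genes, 3 of 4 kept, had 0 called as well, and 0 at an unadjusted p under 0.05. At the shares given above, lists of 4 and 3 genes would have few or no calls. The muscle-linked genes were dim, with mean signals of 12.7 to 18.2, and above the array median on 2 or 3 arrays, so that a change could be missed.

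Of the 21 other TRIM genes, 12 were kept. At 4 h, 1 was higher and 2 were lower in KD, and 0 were higher and 1 lower in WT. Shares of all tested probe sets were 5.3% higher and 4.7% lower in KD, and 6.95% and 10.2% in WT. Trim16, which takes part in the removal of damaged lysosomes by autophagy, had signals in KD of 133.0 and 140.9 without LPS, 93.7 and 119.0 at 1 h, and 65.4 and 73.6 at 4 h. In WT they were 78.1 and 113.2 without LPS, 82.7 and 102.3 at 1 h, and 21.4 and 40.7 at 4 h. The 4 h arrays were the lowest of each strain. The 4 h change was -0.94 ± 0.28 in KD (adjusted p 0.0389) and -1.53 ± 0.28 in WT (adjusted p 0.00056). The KD call was lost without any 1 of the 4 arrays compared (highest adjusted p 0.213). A second Trim16 probe set changed by -0.31 ± 0.38 in KD and -0.90 ± 0.38 in WT and was not called.

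Trim23, a TRIM protein that also carries a GTPase domain of the ARF family, was higher at 4 h in KD by 0.69 ± 0.16 (adjusted p 0.00923). KD cells had signals of 260.1 and 271.0 at 4 h, against 178.8 and 149.2 without LPS. WT cells had signals of 258.3 and 304.6 at 4 h, against 325.4 and 259.1 without LPS. KD at 4 h reached the range that WT had without LPS. The call was lost without replicate 2 of KD without LPS or without either KD array with 4 h LPS (highest adjusted p 0.0989), and a second probe set of similar brightness changed by 0.04 ± 0.17. Trim37, mutated in the human growth disorder mulibrey nanism, was lower at 4 h in KD, at -0.73 ± 0.19 (adjusted p 0.0142), lost without replicate 2 of KD without LPS or replicate 1 of KD with 4 h LPS (highest adjusted p 0.119). The other 4 probe sets of Trim37 changed by -0.21 to -0.02 in KD and were not called, and 2 of them were called lower in WT, at -0.82 ± 0.27 and -0.84 ± 0.26.

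**Figure D3:**
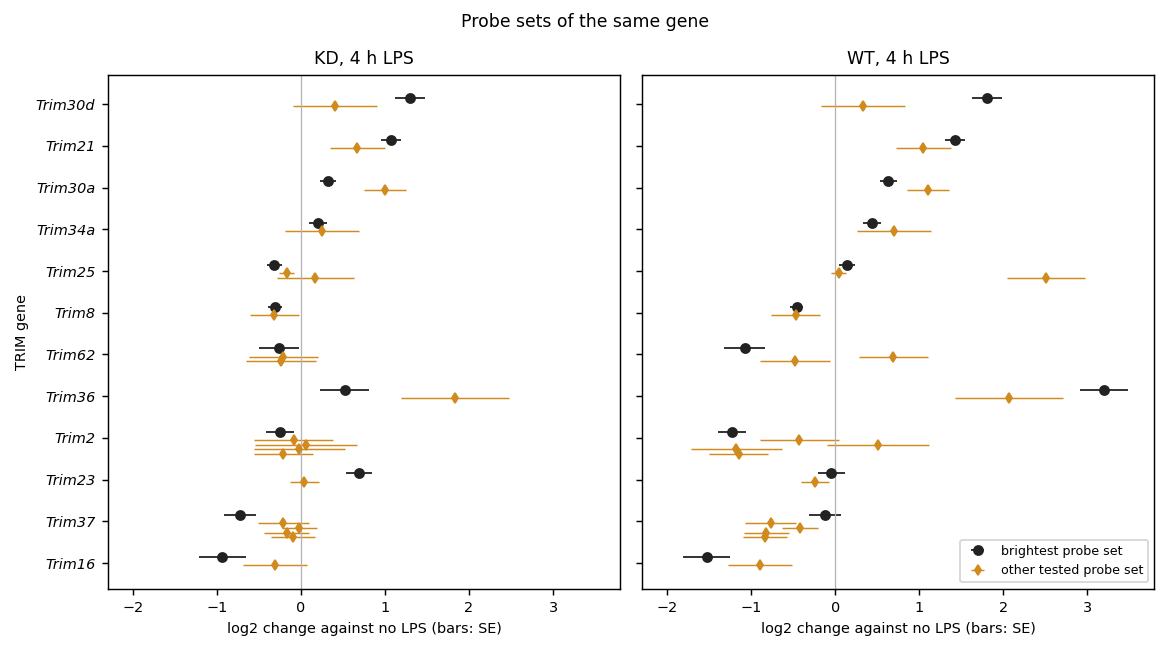
Log2 change at 4 h against no LPS (x axis, bars: SE) for the brightest probe set of each TRIM gene called at 4 h that has more than 1 tested probe set (black circles) and for its other probe sets (orange diamonds), in KD (left) and WT (right). Genes whose probe sets lie apart in at least 1 strain include Trim2, Trim23, Trim25, Trim30d, Trim36, Trim37 and Trim62.

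The plot of probe sets sets these values side by side. Among the genes called at 4 h in KD, 8 had other tested probe sets, and 11 of those 12 had the same sign, 1 of them called. In WT, 9 called genes had 13 others, of which 11 had the same sign and 4 were called. No other probe set was called in the opposite direction in these comparisons.

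A total of 24 of the 43 genes were called in none of the 11 comparisons. The same share over all tested probe sets was not computed, so this count is not shown to be particular to TRIM genes. The 5 of highest mean signal among these 24 genes were Trim35, Trim27, Trim12c, Trim28 and Trim33. Their changes at 4 h lay between -0.12 (Trim35 and Trim33) and 0.15 (Trim12c) in KD. In WT they lay between -0.18 (Trim28) and 0.15 (Trim33).

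Between 1 h and 4 h of LPS, 8 genes were called in KD (18.6%), 6 higher and 2 lower, against 8.43% of all tested probe sets (4.55% higher and 3.88% lower). Trim21, Trim36, Trim23, Trim30d, Trim32 and Trim56 were higher at 4 h, and Trim65 and Trim25 were lower. In WT, 10 genes were called (23.3%), 6 higher and 4 lower, against 15.8% (7.1% higher and 8.74% lower). Trim36, Trim21, Trim45, Trim30d, Trim3 and Trim56 were higher at 4 h, and Trim65, Trim16, Trim2 and Trim25 were lower. Trim21 changed by 1.13 ± 0.12 in KD and 1.56 ± 0.12 in WT, Trim65 by -0.97 ± 0.16 in KD and -2.33 ± 0.16 in WT, and Trim36 by 1.06 ± 0.29 in KD and 3.39 ± 0.29 in WT. In KD, 6 of the 8 calls, all but Trim21 and Trim65, were lost without at least 1 of the 4 arrays compared, and that of Trim36 also without either WT array with 4 h LPS (highest adjusted p 0.295, for Trim25). In WT, 3 of the 10 calls, Trim25, Trim45 and Trim56, were lost without at least 1 of the 4 arrays compared, and that of Trim45 also without either WT array without LPS (highest adjusted p 0.242, for Trim56). These comparisons share their 1 h or 4 h arrays with the comparisons against no LPS.

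Before LPS, the strains differed in 3 genes (6.98%), 2 higher and 1 lower in KD, against 5.25% of all tested probe sets (2.37% higher and 2.87% lower). Trim37 was higher in KD by 0.79 ± 0.19 (adjusted p 0.0169), with signals of 180.7 and 196.4 in KD and 103.9 and 110.4 in WT. Trim25 was higher in KD by 0.38 ± 0.09 (adjusted p 0.0188). Trim23 was lower in KD, at -0.81 ± 0.16 (adjusted p 0.00632), with signals of 178.8 and 149.2 in KD and 325.4 and 259.1 in WT. The arrays of the strains did not overlap for any of the 3. Other probe sets did not all show these differences. The other 4 of Trim37 differed by -0.13 to 0.13 and were not called, among them one with a mean of 105 at 0.01 ± 0.21. The second probe set of Trim23 differed by -0.43 ± 0.17 (adjusted p 0.166). Of the other 2 of Trim25, the brighter differed by 0.14 ± 0.09 and was not called, and the dimmer by 1.62 ± 0.46 (adjusted p 0.0476). Each of these calls was lost without some array: Trim37 without either WT array or replicate 2 of KD (highest adjusted p 0.159), Trim25 without either WT array or replicate 1 of KD (0.166), and Trim23 without replicate 1 of WT or replicate 2 of KD (0.146). In this comparison the stromal marker sums given above were 1202 to 1548 in KD and 2781 to 2782 in WT. The macrophage marker sums were 21664 to 25917 in KD and 17847 to 18387 in WT. The part of these sums in this comparison was not tested.

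At 1 h of LPS, 2 genes differed between the strains (4.65%), 1 higher and 1 lower in KD, against 1.11% (0.573% higher and 0.533% lower). Trim13 was lower in KD, at -0.78 ± 0.14 (adjusted p 0.00764), lost without replicate 2 of WT or replicate 1 of KD with 1 h LPS (highest adjusted p 0.119). Trim45 was higher in KD by 1.99 ± 0.47 (adjusted p 0.0479), with signals of 28.1 and 27.0 in KD and 4.8 and 2.6 in WT. That call was lost without any 1 of 10 arrays, all but those of KD without LPS (highest adjusted p 0.221).

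At 4 h of LPS, 6 genes differed (14.0%), 3 higher and 3 lower in KD, against 5.37% (3.13% higher and 2.24% lower). Trim65 was higher in KD by 1.27 ± 0.16 (adjusted p 7.23e-05), and Trim36 was lower in KD, at -1.94 ± 0.29 (adjusted p 0.000347). These 2 calls were kept with each array left out in turn. Trim16 and Trim2 were higher in KD by 1.11 ± 0.28 (adjusted p 0.0237) and by 0.64 ± 0.17 (adjusted p 0.0308). Trim30d and Trim13 were lower in KD, at -0.77 ± 0.18 (adjusted p 0.0148) and at -0.65 ± 0.14 (adjusted p 0.00934). The Trim2 and Trim30d calls were each lost without any 1 of the 4 arrays compared (highest adjusted p 0.163 and 0.134). The Trim16 call was lost without replicate 1 of WT or either KD array (0.312), and the Trim13 call without either WT array or replicate 1 of KD (0.111). Of these genes, Trim36, Trim16, Trim2 and Trim30d had 7 other tested probe sets, of which 6 had the same sign, with adjusted p of 0.311 to 0.906 over the 7. The exception in sign was Trim30d, at 0.17 ± 0.50.

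The difference between the responses of the strains, KD minus WT, was tested as an interaction. At 4 h, 3 of the 43 genes were called (6.98%), 2 higher and 1 lower, against 3.07% of all tested probe sets (1.88% higher and 1.19% lower). The Trim36 response was smaller in KD, at -2.68 ± 0.41 (adjusted p 0.00148), a call kept with each array left out, but its dimmer probe set gave -0.24 ± 0.90, which was not called. Trim65 fell less in KD, with an interaction of 1.06 ± 0.23 (adjusted p 0.0153), and Trim2 gave 0.98 ± 0.24 (adjusted p 0.0303). The 4 dimmer probe sets of Trim2 gave -0.45 to 1.15, and none was called. The Trim65 call was lost without either WT array without LPS, replicate 1 of WT with 4 h LPS or replicate 1 of KD with 4 h LPS (highest adjusted p 0.102). The Trim2 call was lost without any 1 of the 8 arrays compared except replicate 1 of KD without LPS (highest adjusted p 0.135). For Trim13, Trim21, Trim30a and Trim30d the interactions at 4 h were -0.27 ± 0.20, -0.36 ± 0.17, -0.31 ± 0.14 and -0.52 ± 0.25, and none was called. A call in 1 strain and not the other, as for Trim23, Trim34a, Trim37, Trim56, Trim59 and Trim62, is therefore not a shown difference.

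At 1 h, limma called 0 of the 43 interactions (against 0.326% of all tested probe sets), and 2 had an unadjusted p under 0.05. The 3 lowest were Trim25 at -0.49 ± 0.13 (adjusted p 0.118), Trim12c at 0.45 ± 0.21 (adjusted p 0.448) and Trim45 at 1.37 ± 0.67 (adjusted p 0.478).

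**Figure D4:**
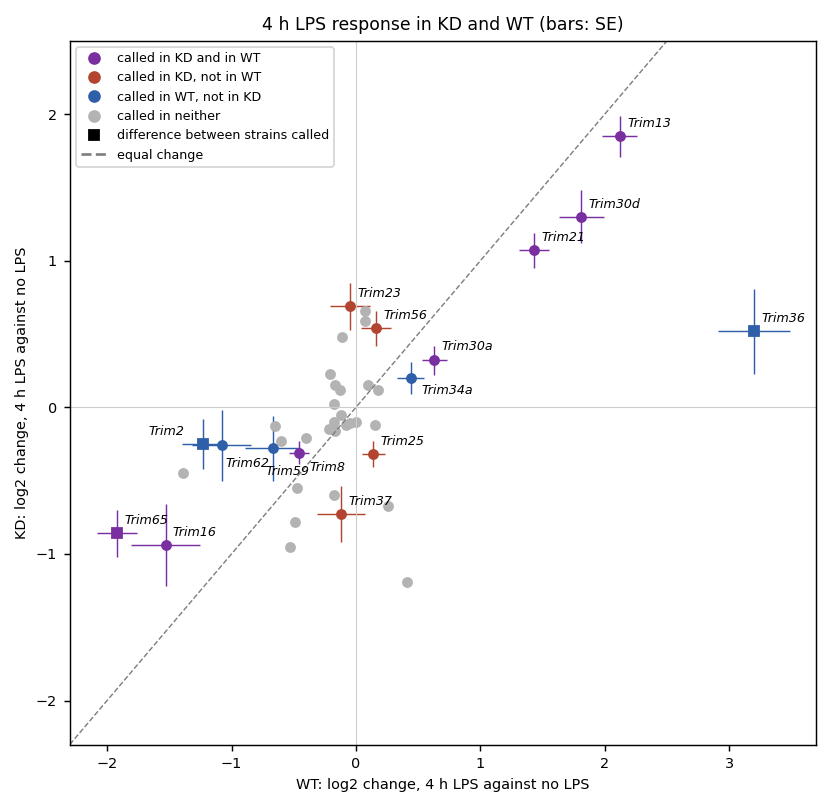
Log2 change at 4 h of LPS against no LPS in KD (y axis) and in WT (x axis) for 43 TRIM genes, with SE bars for those called in either strain and a dashed line of equal change. The 3 squares, Trim36, Trim65 and Trim2, are the genes whose change was called as different between the strains, at interactions of -2.68, 1.06 and 0.98.

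The plot of the 4 h responses sets the strains against each other. Trim13, Trim21, Trim30d, Trim16 and Trim65 lie nearer to 0 in KD than in WT, though of these 5 the difference was called for Trim65. The genes called in KD alone, Trim23, Trim25, Trim37 and Trim56, lie farther from 0 in KD than in WT, and their differences were not called.

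Interferon-induced genes outside the family rose in both strains. Of 25 such genes, 22 were measured. At 4 h, 14 were higher in KD and 17 in WT, with median changes of 0.86 and 1.10, and 0 were lower. At 1 h, 13 were higher in KD and 10 in WT, with medians of 0.81 and 0.49. Of all tested probe sets, 5.3% were higher in KD and 6.95% in WT at 4 h, and 3.17% and 2.89% at 1 h. Ifit1, an interferon-induced protein that binds viral RNA, rose by 4.33 ± 0.14 in KD and 4.47 ± 0.14 in WT at 4 h. The interaction was called for Oasl1 at 4 h, at -1.03 ± 0.21, and for Ifit2 at 1 h, at 0.99 ± 0.19. That is 1 of 22 genes at each time, against 3.07% of all tested probe sets at 4 h and 0.326% at 1 h.

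Of 26 ubiquitin enzymes and known partners or targets of TRIM proteins, 22 were measured. At 4 h, 4 were higher and 1 lower in KD, and 6 were higher and 3 lower in WT. All tested probe sets had shares of 5.3% higher and 4.7% lower in KD, and 6.95% and 10.2% in WT. Ifih1, which encodes the Trim65 target MDA5, rose by 1.87 ± 0.12 in KD and 2.82 ± 0.12 in WT. Tab2, which encodes a Trim30a target, changed by 0.29 ± 0.10 in KD, which was not called, and rose by 0.81 ± 0.10 in WT. Irf8, a transcription factor of the macrophage lineage, fell by 0.80 in KD and by 1.31 in WT (SE 0.14 each). Ube2d1, a ubiquitin-conjugating enzyme of the kind that RING ligases use, rose by 0.88 ± 0.24 in KD and fell in WT (-0.92 ± 0.24), with an interaction of 1.80 ± 0.34 (adjusted p 0.00681). Interactions at 4 h were called for 5 of the 22 genes, against 3.07% of all tested probe sets (1.88% higher and 1.19% lower). They were higher for Ube2d1, Ube2w and Mavs and lower for Ifih1, at -0.95 ± 0.17, and Tab2, at -0.52 ± 0.14.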

How the data were processed

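RNA from 12 cultures was measured on 1-colour Affymetrix arrays, 1 array per culture, and no read depth applies: the number of arrays limits the precision. The authors deposited 1 linear intensity for each probe set and array, computed with MAS5 (version not stated), per the submitters' processing notes. These intensities were not rescaled, since the trimmed mean was 150 on every array. Extraction used RNeasy and labelling used NuGEN Ovation, per the labels' protocols.

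Of 45101 probe sets, 64 array controls were left out. In the annotation 34958 probe sets had 1 symbol, 932 had several and 9211 had none. TRIM genes had 111 probe sets with 1 symbol, of which 77 were tested, and 5 probe sets that list a TRIM symbol among several were not used. Probe sets above the array median on at least 2 arrays were tested, 27931 in all. Signals became log2(signal + 4.4), with the 20th percentile of the values added, which understates the change of dim genes.

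limma 3.58.1 in R 4.3.3 fitted 1 mean per group over all 12 arrays, moderating the variances with empirical Bayes and a trend on mean signal. There were 11 comparisons: per strain, both times of LPS against no LPS and 4 h against 1 h; per condition, KD against WT; and per time, the interaction. Adjusted p-values are Benjamini-Hochberg within a comparison over all tested probe sets. The fit was tested on simulated data. A call is an adjusted p under 0.05.

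All called TRIM genes were named in each comparison, or the 3 of lowest p where none was called. Signals of every array are given at least for genes called at 4 h with an absolute change of 1 or more and for those called in an interaction. The members and lists were chosen with earlier results of these data known. The alternatives were quantile normalization, no filter, other pseudocounts, a prior without a trend, the replicate number as a block, probe sets without a letter suffix, and each array left out in turn, where a lone array is assumed to vary like the other groups. Promoters came from RefSeq (GRCm38.p6) and were aligned with Biopython 1.88. Python 3.11.15, pandas 2.3.3, numpy 2.4.6 and matplotlib 3.10.9 were used for tables and figures. The Irak4 transcript was not analysed here and gives no check of the strain labels.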

Additional observations from a re-analysis of the deposited data

Results flagged for a closer look

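The LPS response at 4 h was called as different between KD and WT, by the test of the difference itself, for 3 TRIM genes. The difference, KD response minus WT response, was -2.68 on the log2 scale for Trim36, 1.06 for Trim65 and 0.98 for Trim2. The dimmer probe sets of Trim36 and Trim2 were not called in this test. The Trim65 and Trim2 calls were each lost without some single arrays. With a variance prior without a trend, limma called 1 TRIM gene in this test. Each group has 2 arrays, too few to look for a single array that stands apart within a group.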

How the results depend on the processing

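With each array left out in turn, the number of the 43 TRIM genes called ranged from 4 to 11 at 4 h in KD, 2 to 5 at 1 h in KD, 10 to 12 at 4 h in WT and 2 to 7 at 1 h in WT. Between 1 h and 4 h it ranged from 3 to 8 in KD and 8 to 11 in WT. For KD against WT it ranged from 0 to 3 without LPS, 0 to 2 at 1 h and 2 to 6 at 4 h, and for the interactions from 0 to 0 at 1 h and 1 to 3 at 4 h. A variance prior without a trend had the widest effect: 5 genes were called at 4 h and 1 at 1 h in KD, 2 at 1 h in WT, 3 between 1 h and 4 h in KD, 0, 0 and 3 for KD against WT without LPS, at 1 h and at 4 h, and 1 for the interaction at 4 h. Without the filter, where all 58 genes were tested, 7 were called at 4 h in KD and 1 for KD against WT at 1 h. Quantile normalization and a pseudocount of 23.4 each left 1 call for KD against WT at 1 h, with 0 higher and 1 lower. The cause of these moves was not tested.

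The same replicate number did not pair the samples: the difference of replicate 1 and replicate 2 correlated between groups at -0.0682 to 0.0401. With the replicate number as a block, 1 gene was called for KD against WT at 1 h, 10 at 4 h in KD and 11 at 4 h in WT, and the counts of the other comparisons did not change. Over 66 calls of single genes, no change in direction was seen under any alternative run. The calls that were lost numbered 0 with a pseudocount of 1, 2 with a pseudocount of 23.4, 5 with quantile normalization, 3 with the block, 11 without the filter and 35 without the trend. Leaving out 1 array ended 142 of 792 such repeats. Taking probe sets without a letter suffix changed the representative of 2 of these results, both of Trim37, and ended both calls: -0.02 at 4 h in KD and 0.01 for KD against WT without LPS. The counts then fell to 10 and 2, against 11 and 3. For Trim45, whose signals in WT at 1 h lie near the pseudocount, the change at 1 h in WT was -2.63 with a pseudocount of 1, -1.98 with 4.4 and -0.90 with 23.4.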

Other observations

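Some members of the family carry symbols without the Trim prefix and were not among the 43 genes. Of 4 such genes, 3 were measured. Mefv, which encodes pyrin, the sensor mutated in familial Mediterranean fever, was called by limma in WT, at 2.74 ± 0.45 after 1 h of LPS (adjusted p 0.000695) and 3.43 ± 0.45 after 4 h (adjusted p 1.55e-05). In KD its changes of 0.19 ± 0.45 at 1 h and 0.58 ± 0.45 at 4 h were not called. The interaction at 4 h was -2.85 ± 0.64 (adjusted p 0.0194). It also takes in the difference between the strains without LPS. In that comparison the 3 measured genes had a median of 1.21, higher in KD, with 0 called. At 4 h of LPS, Mefv was lower in KD than in WT, at -1.62 ± 0.45 (adjusted p 0.0423). Whether the Mefv calls are kept with 1 array left out was not examined. Pml, which organises nuclear bodies, and Mid1, which binds microtubules, were called in no comparison.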
